A study of Homo sapiens with 12 samples.

Results

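SR proteins and heterogeneous nuclear ribonucleoproteins (hnRNPs) were examined together with their partners and kinases in A375, an established human melanoma cell line. Members were the genes whose symbol is SRSF or HNRNP with further letters or digits, pseudogenes and 1 other gene left out, plus 16 named regulators. This rule gave 52 of the 56609 gene symbols in the count table. It reads symbols alone, but it was chosen with earlier results of these data known. By role they were 12 SR proteins (SRSF1 to SRSF12), 2 SR-related TRA2 genes, 4 kinases that phosphorylate SR proteins, 26 hnRNPs including PTBP1 and PTBP2, 2 U2AF subunits and 6 other regulators of alternative splicing (RBFOX2, ESRP1, ESRP2, MBNL1, MBNL2 and QKI). Of the 52, 47 passed the filter on low counts and were tested. The 5 that did not were ESRP1 and HNRNPCL1 to HNRNPCL4, which were at or near 0 in all 12 libraries.

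The series asked whether cells without MAPKAPK2, which encodes MK2, a kinase downstream of p38, respond differently to JQ1. JQ1 is a small molecule that occupies the acetyl-lysine pockets of BET bromodomain proteins. Unedited A375 cells (wild type) and A375 cells with a CRISPR knockout of MAPKAPK2 received either 500 nM JQ1 or DMSO as the control for 48 h, giving 4 groups of 3 replicates: wild-type DMSO, wild-type JQ1, knockout DMSO and knockout JQ1. All groups share the parental line and the serum-containing medium. The sample titles call the DMSO cultures untreated. The labels do not say whether the knockout is 1 clone or a pool, and they do not say whether replicates were separate cultures, so p-values measure only the spread between these samples, which may be technical.

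SR proteins carry RNA recognition motifs and a tail of arginine-serine repeats. They bind enhancer sequences in exons and help U1 and U2 to define splice sites, and CLK and SRPK kinases phosphorylate the tail, which governs where the proteins sit in the nucleus. Many hnRNPs, among them HNRNPA1 and PTBP1, often act in the opposite way by binding silencer sequences. Several of these genes control their own messages by splicing in an exon that sends the transcript to nonsense-mediated decay, so a gene-level RNA count does not give the level of the protein-coding message. No protein, isoform or splicing measurement was used here.

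Libraries held from 25316565 to 34594025 estimated counts, and 31252 to 34075 genes had at least 1 count. MAPKAPK2, the targeted gene, was at 89.6 ± 2.20 counts per 1000000 (CPM) with DMSO and 117 ± 4.31 with JQ1 in wild-type cells, and at 12.4 ± 1.15 and 14.4 ± 1.61 in knockout cells (SD, n = 3). Of the melanocyte lineage and melanoma markers, SOX10 (389 to 687 CPM), MITF (25.6 to 44.1), S100B (27.8 to 49.1), S100A1 (23.8 to 57.2) and AXL (179 to 500.2) were present in all 12 libraries, whereas the pigment genes PMEL, MLANA, DCT and TYR stayed at or below 1.45 CPM. Keratinocyte, fibroblast and blood markers were at or below 5.08 CPM, with KRT1 and HBB at 0 in all 12 libraries. Knockout JQ1 replicate 3 stood apart from its replicates and the abundant noncoding RNAs RN7SK, RN7SL1, RN7SL2 and RMRP took 14.6% of its counts, the most of any library (lowest 9.42%). Values of called members that this library moved by over 1.5 times, or whose call it ended, are given with and without it.

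Promoters are shown for 5 of the members that changed with JQ1, picked without a fixed rule. SRSF5, U2AF2 and HNRNPAB rose in both genotypes, SRSF6 rose in knockout cells, and PTBP2 fell in both. SRSF2 and QKI, which also changed, had no promoter entry. Whether JQ1 acts on these promoters was not tested. Each line gives the 150 bases before the RefSeq start site, 5′ to 3′ on the plus strand of GRCh38.p14, with motif matches in capitals.
SRSF5: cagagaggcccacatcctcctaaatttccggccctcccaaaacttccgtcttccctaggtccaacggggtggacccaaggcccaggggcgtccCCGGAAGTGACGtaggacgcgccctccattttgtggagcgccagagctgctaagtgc
U2AF2: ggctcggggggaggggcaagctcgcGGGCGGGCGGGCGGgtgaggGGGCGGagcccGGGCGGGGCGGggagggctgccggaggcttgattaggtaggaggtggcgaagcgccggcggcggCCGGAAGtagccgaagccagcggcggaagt
HNRNPAB: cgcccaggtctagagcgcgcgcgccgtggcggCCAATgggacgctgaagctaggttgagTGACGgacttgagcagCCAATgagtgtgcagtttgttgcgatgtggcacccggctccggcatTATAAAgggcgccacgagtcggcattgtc
SRSF6: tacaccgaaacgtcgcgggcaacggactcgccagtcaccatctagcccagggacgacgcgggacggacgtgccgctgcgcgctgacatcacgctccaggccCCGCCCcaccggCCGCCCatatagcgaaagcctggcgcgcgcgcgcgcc
PTBP2: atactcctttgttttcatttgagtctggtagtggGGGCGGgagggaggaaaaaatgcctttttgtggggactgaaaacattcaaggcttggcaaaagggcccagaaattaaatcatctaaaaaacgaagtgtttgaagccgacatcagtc
The sequences lie at chr14:69766992-69767141 (SRSF5), chr19:55654885-55655034 (U2AF2), chr5:178204383-178204532 (HNRNPAB), chr20:43457746-43457895 (SRSF6) and chr1:96722488-96722637 (PTBP2).

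Motifs of known promoter factors were searched on both strands. No motif occurred in all 5 printed sequences. SRSF5 held an ETS core (CCGGAAG) 57 bases before the start, which ran into a CRE-type motif (TGACG) at 50. U2AF2 held 6 GC boxes (GGGCGG, some of them overlapping) between 125 and 89 bases before the start and an ETS core at 30. HNRNPAB held a TATA box (TATAAA) at 29, a CRE-type motif at 91 and CCAAT boxes (CCAAT) at 75 and 118. SRSF6 held GC boxes on the minus strand (CCGCCC) at 49 and 37, and PTBP2 held 1 GC box at 116. Of the 52 members, 44 had promoter entries, with 66 start windows between them. In the 250 bases before each start, the GC box occurred in 57.6% of member windows and 42.6% of all 35116 windows, the CRE-type motif in 39.4% and 21.2%, the CCAAT box in 37.9% and 32%, the E-box (CACGTG) in 12.1% and 6.34%, the ETS core in 7.58% and 8.52%, and the TATA box in 7.58% and 10.7%. These matches describe the letters and are not shown to be sites of binding.

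Summed over the 52 members, groups differed by less than the spread of the knockout groups, at 8844 ± 22.5 CPM with DMSO and 8838 ± 119 with JQ1 in wild-type cells, and 8738 ± 284 and 8908 ± 278 in knockout cells (SD, n = 3). This holds for TMM-scaled levels: as a share of all counts the members took 0.936% ± 0.00396 with DMSO and 0.856% ± 0.0119 with JQ1 in wild-type cells, and 0.896% ± 0.0230 and 0.844% ± 0.0398 in knockout cells. Every DMSO library then lay above every JQ1 library of its genotype. Neither measure gives the amount of RNA per cell in these bulk samples, or shows whether the mix of cell states changed. Individual members moved in both directions. With JQ1, 13 of 47 tested members passed an adjusted p of 0.05 in wild-type cells, 7 higher and 6 lower, against 33.1% of all genes tested (16.9% higher and 16.2% lower). In knockout cells 17 passed, 11 higher and 6 lower, against 34.4% of all genes (16.7% higher and 17.8% lower). The members' shares, 27.7% and 36.2%, lay near these backgrounds. The median log2 fold change was 0.04 over the members in both genotypes, against -0.03 and -0.00 over all genes. Fold changes and tests come from edgeR's quasi-likelihood test on all 21698 genes with Benjamini-Hochberg adjustment, and levels are CPM after TMM scaling. Scaling by library totals shifted the median of all genes to -0.16 in wild type and -0.12 in knockout, and it turned the members' split to 4 higher and 14 lower in wild type and 6 higher and 12 lower in knockout. Of all 21698 genes, 2298 were then higher and 5368 lower in wild type, and 2409 and 5250 in knockout. Directions below are therefore relative to the typical gene of the library.

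**Figure D1:**
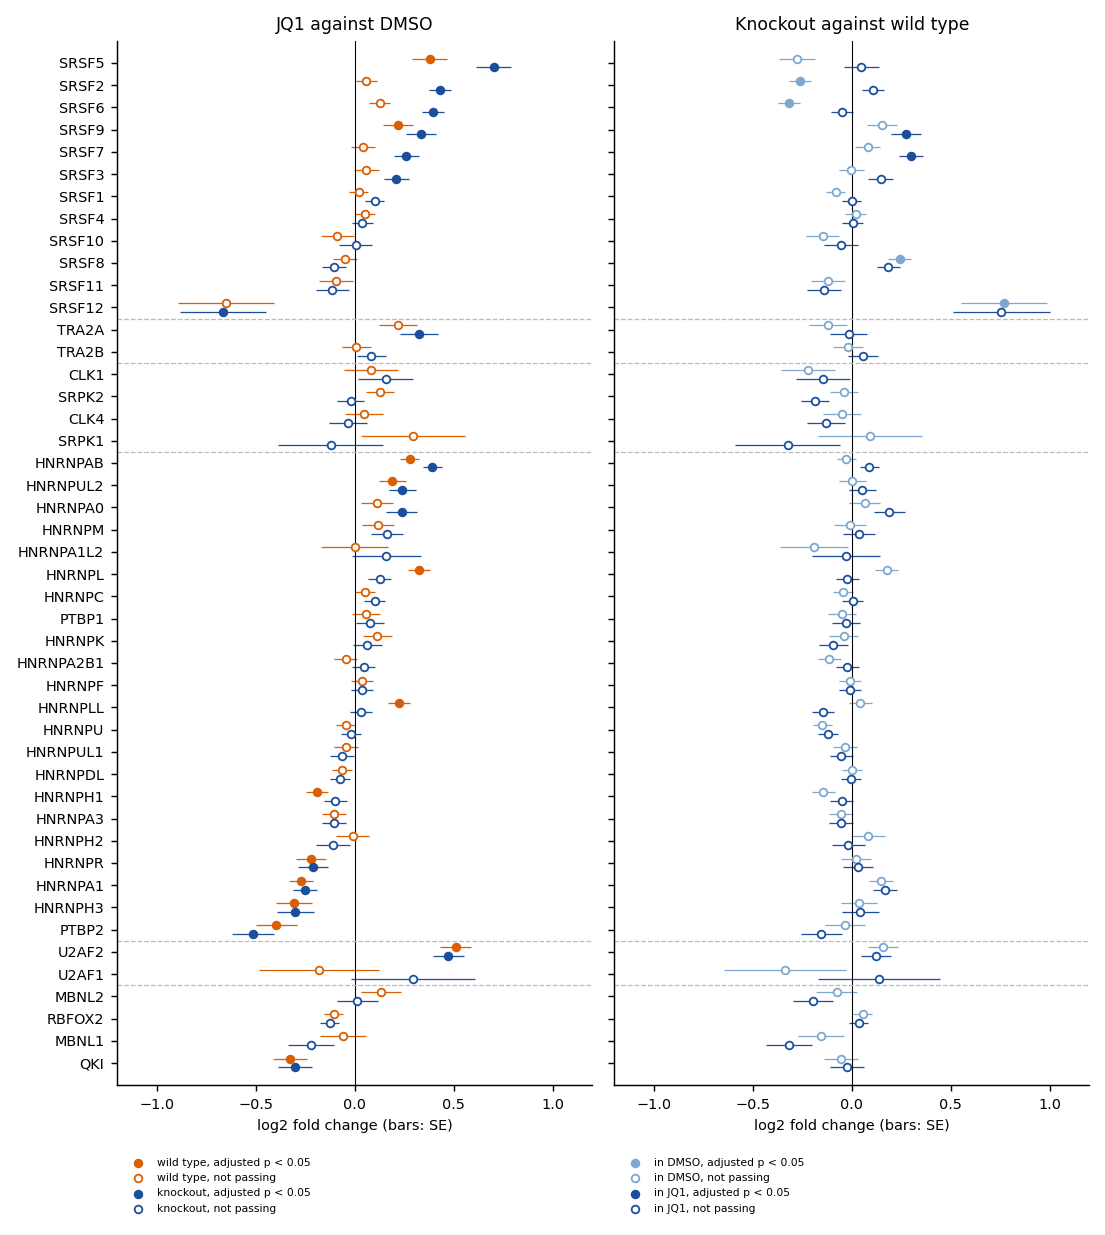
Log2 fold change of each tested member (46 drawn; ESRP2, at or below 0.495 CPM in every library, is left out) for JQ1 against DMSO in each genotype (left) and for knockout against wild type in each treatment (right), with SE bars, filled where the adjusted p is under 0.05 and grouped by role with dashed lines. Most filled points in the JQ1 panel are in the largest roles, the 12 SR proteins and 22 tested hnRNPs. In the knockout panel all 6 filled points are SR proteins, 4 of 12 with DMSO and 2 of 12 with JQ1. Of all genes tested, 7.92% and 8.57% passed in these comparisons.

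Among the SR proteins, 2 of 12 rose with JQ1 in wild-type cells (SRSF5 and SRSF9) and none fell. In knockout cells 6 of 12 rose (SRSF2, SRSF3, SRSF5, SRSF6, SRSF7 and SRSF9) and SRSF12 fell. The share that rose in wild type, 16.7%, lay near the 16.9% of all genes, and in knockout the shares were 50% higher and 8.33% lower, against 16.7% and 17.8%. The median log2 fold change of the 12 was 0.05 in wild type and 0.16 in knockout, against -0.03 and -0.00 over all genes. Scaled by library totals, the counts were 1 higher and 2 lower in wild type and 4 higher and 2 lower in knockout. All 21698 genes then gave 2298 higher and 5368 lower in wild type, and 2409 and 5250 in knockout. The summed SR protein level was 1354 ± 15.4 CPM with DMSO and 1404 ± 13.1 with JQ1 in wild-type cells, and 1288 ± 43.9 and 1480 ± 52.7 in knockout cells (SD, n = 3). As a share of all counts the wild-type direction turned, from 0.143% ± 0.00182 with DMSO to 0.136% ± 0.00341 with JQ1, and the knockout groups were at 0.132% ± 0.00362 and 0.140% ± 0.00448.

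SRSF5 had the largest rise of the 12 in both genotypes. It stood at 30.1, 23.9 and 27.6 CPM in the wild-type DMSO libraries and 35.6, 37.0 and 33.5 with JQ1, and at 22.7, 23.1 and 21.7 in knockout DMSO and 40.2, 34.2 and 35.3 in knockout JQ1. Every JQ1 library lay above every DMSO library, and the knockout DMSO libraries were the lowest of all. The log2 fold change was 0.38 (SE 0.09, adjusted p 0.00400) in wild type and 0.70 (SE 0.09, adjusted p 2.50e-05) in knockout. In limma on the authors' normalized values the wild-type rise was 0.34 and did not pass (adjusted p 0.0988). SRSF9, one of the shorter SR proteins, was at 111, 113 and 121 CPM in wild-type DMSO and 141, 132 and 128 with JQ1, and at 121, 129 and 132 with DMSO and 158, 144 and 181 with JQ1 in knockout cells. The drug raised it without overlap in each genotype, and knockout JQ1 replicate 3 was its highest library. Its rise was 0.22 (SE 0.08, adjusted p 0.0381) in wild type and 0.34 (SE 0.08, adjusted p 0.00289) in knockout. The wild-type call ended with library totals (adjusted p 0.338) and without wild-type DMSO replicate 1 or 2 or wild-type JQ1 replicate 1 or 2 (0.0744 to 0.143).

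SRSF2 and SRSF6 passed with the drug in knockout cells alone. SRSF2, also called SC35, a marker of nuclear speckles, was at 172, 167 and 156 CPM in wild-type DMSO and 173, 171 and 171 in wild-type JQ1. In the knockout groups it was at 144, 138 and 129.8 with DMSO and 185, 181 and 189.5 with JQ1. Wild-type libraries overlapped between treatments, whereas knockout DMSO was the lowest group and knockout JQ1 the highest. The JQ1 effect was 0.06 (SE 0.05, adjusted p 0.448) in wild type and 0.43 (SE 0.05, adjusted p 2.53e-05) in knockout. SRSF6, a larger SR protein of the same family, was at 111, 112 and 104 CPM with DMSO and 119, 116 and 122 with JQ1 in wild-type cells, and at 89.1, 85.9 and 87.4 with DMSO and 118, 118 and 109 with JQ1 in knockout cells. Its knockout DMSO libraries lay below all 9 others. JQ1 gave 0.13 (SE 0.05, adjusted p 0.0913) in wild type and 0.39 (SE 0.05, adjusted p 5.42e-05) in knockout. The knockout rises of SRSF2, SRSF5, SRSF6 and SRSF9 passed in all 20 alternative analyses.

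SRSF7 and SRSF3, close relatives known for exporting mRNA as well as for splicing, rose in knockout cells by smaller amounts. SRSF7 was at 91.9, 91.9 and 79.6 CPM in knockout DMSO and 105, 102 and 109 in knockout JQ1 (log2 fold change 0.26, SE 0.06, adjusted p 0.00404), and all 6 wild-type libraries lay between 81.0 and 86.5. SRSF3 went from 198 ± 11.6 to 229 ± 18.2 CPM (0.21, adjusted p 0.0182), and in wild-type cells it was at 199 ± 7.33 and 207 ± 4.50. SRSF12, a weakly expressed relative of SRSF10, was the 1 SR protein that fell. It was at 0.835, 0.744 and 0.825 CPM with DMSO and 0.534, 0.594 and 0.414 with JQ1 in wild-type cells, and at 1.44, 1.58 and 1.09 with DMSO and 0.914, 0.893 and 0.791 with JQ1 in knockout cells. The DMSO libraries exceeded the JQ1 libraries in each genotype, all at very low counts. Its change was -0.65 (SE 0.24, adjusted p 0.0524) in wild type and -0.67 (SE 0.22, adjusted p 0.0288) in knockout, and the knockout call ended in 8 of 20 alternatives, among them DESeq2 (adjusted p 0.103) and leaving out knockout DMSO replicate 1 or 2 or knockout JQ1 replicate 2 or 3 (0.0551 to 0.109). Without knockout JQ1 replicate 3 the knockout value of SRSF12 was -0.60 (adjusted p 0.0918). The SRSF7 call ended with library totals (adjusted p 0.0778). The SRSF3 call ended with library totals, with the knockout groups alone, and without knockout DMSO replicate 2 or 3 or knockout JQ1 replicate 1 (adjusted p 0.0715 to 0.272).

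The other 5 SR proteins did not pass in either genotype. SRSF1, the founding member of the family, had 0.02 in wild type and 0.10 in knockout, SRSF4 0.05 and 0.04, SRSF8 -0.05 and -0.10, SRSF10 -0.09 and 0.01, and SRSF11 -0.09 and -0.11 (log2 fold change, JQ1 against DMSO). SRSF1 was at 384, 377 and 382 CPM in wild-type DMSO and 393, 377 and 389.8 in wild-type JQ1, ranges that overlapped. The SR-related activator TRA2A was at 18.5, 16.0 and 17.2 CPM in knockout DMSO and 22.4, 23.9 and 18.4 in knockout JQ1, and the lowest JQ1 library, replicate 3, fell within the DMSO range. Its rise was 0.32 (SE 0.10, adjusted p 0.0165), and the wild-type value was 0.22 (adjusted p 0.0924). The knockout call ended with library totals, with the knockout groups alone, and without knockout DMSO replicate 2 or knockout JQ1 replicate 1 or 2 (adjusted p 0.0516 to 0.133). TRA2B, its paralogue, had 0.01 and 0.08 and did not pass.

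**Figure D2:**
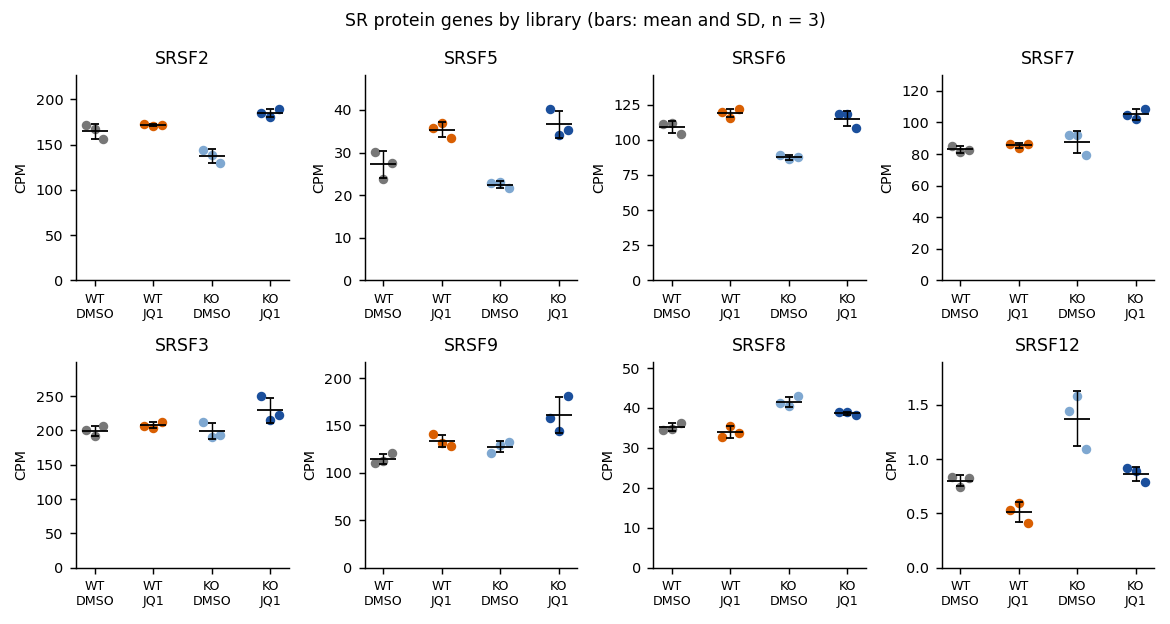
CPM of 8 SR protein genes in each of the 12 libraries (points), with the group mean and SD (bars, n = 3) and a linear axis from 0. SRSF2, SRSF5 and SRSF6 show their lowest group in knockout DMSO, with means of 137, 22.5 and 87.5 CPM, and SRSF7 its highest in knockout JQ1, at 105 CPM.

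None of the 4 kinases of SR proteins passed in any comparison. CLK1 had a log2 fold change with JQ1 of 0.08 in wild type and 0.16 in knockout, CLK4 0.05 and -0.04, and SRPK2 0.13 and -0.02. SRPK1, a mainly cytoplasmic kinase, varied more between replicates than between groups, at 43.7, 47.5 and 22.3 CPM in wild-type JQ1 and 43.7, 22.4 and 24.3 in knockout JQ1. Its wild-type change was 0.30 (SE 0.26) and did not pass.

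Of 22 tested hnRNPs, 4 rose and 5 fell with JQ1 in wild-type cells (18.2% and 22.7%, against 16.9% and 16.2% of all genes), and 3 rose and 4 fell in knockout cells (13.6% and 18.2%, against 16.7% and 17.8%), shares near the background. HNRNPAB, HNRNPUL2, HNRNPA1, HNRNPR, HNRNPH3 and PTBP2 moved the same way in both genotypes. The summed hnRNP level was 6542 ± 46.2 CPM with DMSO and 6407 ± 102 with JQ1 in wild-type cells, and 6511 ± 213 and 6449 ± 197 in knockout cells (SD, n = 3), differences within the spread of the knockout groups. As a share of all counts the DMSO and JQ1 groups were apart in each genotype. The shares were 0.693% ± 0.00506 and 0.620% ± 0.00839 in wild type, and 0.667% ± 0.0173 and 0.611% ± 0.0304 in knockout. With library totals the split was 2 higher and 10 lower in wild type and 1 higher and 8 lower in knockout. The same scaling gave 2298 higher and 5368 lower of all 21698 genes in wild type, and 2409 and 5250 in knockout.

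HNRNPAB, an RNA-binding hnRNP, was at 201, 200.3 and 203 CPM in wild-type DMSO and 252, 245 and 235 with JQ1, and at 199, 194 and 199 with DMSO and 259, 250.4 and 268 with JQ1 in knockout cells. The 6 JQ1 libraries all exceeded the 6 DMSO libraries. It rose by 0.28 (SE 0.05, adjusted p 3.99e-04) in wild type and 0.39 (SE 0.05, adjusted p 1.58e-05) in knockout, and both calls held in all 20 alternatives. HNRNPL, which binds CA-rich RNA, was at 214, 203 and 201 CPM with DMSO and 263, 269 and 243 with JQ1 in wild-type cells, and at 222, 228 and 249 with DMSO and 251, 251 and 261 with JQ1 in knockout cells. Its JQ1 libraries were the higher ones in each genotype, with a narrower gap in knockout cells. The change was 0.32 (SE 0.06, adjusted p 5.23e-04) in wild type and 0.13 (SE 0.06, adjusted p 0.108) in knockout. HNRNPLL, its paralogue, known for CD45 splicing in lymphocytes, was at 49.7, 52.9 and 51.2 CPM with DMSO and 60.5, 60.9 and 58.0 with JQ1 in wild type and at 53.9, 54.2 and 50.4 with DMSO and 54.0, 55.0 and 53.3 with JQ1 in knockout cells. Wild-type groups were apart and knockout groups overlapped, with 0.22 (SE 0.06, adjusted p 0.00622) and 0.03 (SE 0.06, adjusted p 0.695). The genotypes were not shown to differ for HNRNPL or HNRNPLL: the interaction was -0.20 (adjusted p 0.526) and -0.19 (adjusted p 0.531). The HNRNPLL call ended with library totals (adjusted p 0.226).

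HNRNPUL2, a relative of HNRNPU, rose by 0.19 (adjusted p 0.0441) in wild type and 0.24 (adjusted p 0.0126) in knockout. The wild-type call ended in 9 alternatives, among them library totals (0.06, adjusted p 0.540) and leaving out knockout DMSO replicate 2, replicate 1 or 3 of wild-type DMSO, or replicate 1 or 2 of wild-type JQ1 (adjusted p 0.0504 to 0.206). The knockout call ended with library totals and without knockout DMSO replicate 1 (adjusted p 0.186 and 0.0525). HNRNPA0 rose in knockout by 0.24 (adjusted p 0.0295) and had 0.11 (adjusted p 0.308) in wild type. Its knockout JQ1 libraries were 152, 148 and 187 CPM, the highest being replicate 3, and without that library the value was 0.13 (adjusted p 0.0988). The HNRNPA0 call also ended with library totals, with the knockout groups alone and without knockout DMSO replicate 1 or 2 (adjusted p 0.0725 to 0.216).

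HNRNPA1, the archetypal splicing silencer of the family, fell in both genotypes. It was at 1101, 1206 and 1167 CPM in wild-type DMSO and 984, 957 and 942 with JQ1, and at 1349, 1300.2 and 1199 with DMSO and 1117, 1133 and 989 with JQ1 in knockout cells. All JQ1 libraries lay below the DMSO libraries of their genotype. The log2 fold change was -0.27 (SE 0.06, adjusted p 0.00315) in wild type and -0.25 (SE 0.06, adjusted p 0.00499) in knockout, and neither call was lost in any alternative. HNRNPA1 has 75 annotated pseudogenes in the table, which took from 1.31% to 1.88% of their combined counts. PTBP2, the neuronal paralogue of PTBP1, was at 21.7, 21.1 and 21.2 CPM in wild-type DMSO and 15.4, 14.9 and 18.3 with JQ1, and at 21.6, 21.8 and 19.0 with DMSO and 13.6, 16.8 and 13.4 with JQ1 in knockout cells. JQ1 libraries were below DMSO libraries throughout. It changed by -0.40 (SE 0.10, adjusted p 0.00822) in wild type and -0.51 (SE 0.10, adjusted p 0.00142) in knockout, the largest falls among the hnRNPs. PTBP1 itself had 0.06 (adjusted p 0.593) and 0.08 (adjusted p 0.448).

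HNRNPR, HNRNPH3 and HNRNPH1 also fell in wild-type cells. HNRNPR, which binds mRNA and 7SK RNA, was at 302, 293 and 299 CPM in wild-type DMSO and 254, 254 and 259 with JQ1, and at 325, 294 and 288 with DMSO and 278, 282 and 224 with JQ1 in knockout cells. HNRNPH3 was at 63.4, 65.2 and 64.6 CPM with DMSO and 52.8, 51.8 and 51.6 with JQ1 in wild type and at 71.7, 68.4 and 58.1 with DMSO and 58.2, 57.6 and 45.3 with JQ1 in knockout cells. HNRNPH1, which binds G-rich RNA, was at 269, 281 and 261 CPM with DMSO and 239.6, 225 and 245 with JQ1 in wild-type cells, and at 253, 235 and 246 with DMSO and 243, 226 and 216 with JQ1 in knockout cells. The wild-type groups were apart for all 3 genes, and knockout JQ1 replicate 3 was the lowest knockout library for each. The changes were -0.22 (adjusted p 0.0365) and -0.21 (adjusted p 0.0450) for HNRNPR, -0.31 (adjusted p 0.0189) and -0.30 (adjusted p 0.0202) for HNRNPH3, and -0.19 (adjusted p 0.0192) and -0.10 (adjusted p 0.219) for HNRNPH1, wild type first. Without knockout JQ1 replicate 3 the knockout values were -0.11 (adjusted p 0.124) for HNRNPR and -0.19 (0.0565) for HNRNPH3. The knockout HNRNPR call also ended without any 1 of the knockout DMSO or wild-type libraries (0.0584 to 0.207), and the knockout HNRNPH3 call without knockout DMSO replicate 1 or 2 (0.102 and 0.0714). With the knockout groups alone, the knockout calls of HNRNPR (0.138) and HNRNPH3 (0.0813) ended too. Limma on the authors' values also ended the knockout HNRNPH3 call (0.0544). The wild-type calls were also near the threshold: leaving out 1 wild-type library ended the HNRNPR call for each of the 6 (adjusted p 0.0700 to 0.118), as did leaving out knockout DMSO replicate 2 or 3 (0.0582 and 0.0573), the HNRNPH3 call for DMSO replicates 2 and 3 and JQ1 replicates 2 and 3 (0.0544 to 0.0627), and the HNRNPH1 call for DMSO replicates 1 and 2 and JQ1 replicate 2 (0.0674 to 0.111). Limma on the authors' values ended the wild-type calls of HNRNPR (0.0969) and HNRNPH1 (0.0566). The HNRNPH1 call also ended with no low-count filter (0.0662).

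The remaining tested hnRNPs passed in neither genotype. Their log2 fold changes ran from -0.10 (HNRNPA3) to 0.12 (HNRNPM) in wild type and from -0.11 (HNRNPH2) to 0.16 (HNRNPM) in knockout. HNRNPC, which coats nascent transcripts and binds uridine tracts, had 0.05 and 0.10, HNRNPK, which binds C-rich RNA, 0.11 and 0.06, and HNRNPA2B1 -0.05 and 0.04. The knockout JQ1 libraries of HNRNPK were 609, 564 and 471 CPM, the lowest being replicate 3. Without that library HNRNPK passed at 0.12 (adjusted p 0.0405) in wild type and 0.16 (0.0143) in knockout. HNRNPC then passed in knockout at 0.14 (adjusted p 0.0453). HNRNPDL, HNRNPF, HNRNPU and HNRNPUL1 lay within 0.1 of 0 in both genotypes.

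U2AF2, the large subunit of the factor that recognises the polypyrimidine tract at the 3′ splice site, had the largest rise of any member in wild-type cells. It was at 189, 194 and 199.5 CPM in wild-type DMSO and 291, 284 and 255 with JQ1, and at 209.6, 217 and 225 with DMSO and 284, 275 and 344 with JQ1 in knockout cells. Every JQ1 library exceeded every DMSO library, with knockout JQ1 replicate 3 the highest. The log2 fold change was 0.51 (SE 0.08, adjusted p 1.34e-04) in wild type and 0.47 (SE 0.08, adjusted p 2.22e-04) in knockout, and 0.37 (adjusted p 1.04e-04) in knockout without that library. Both calls held in all 20 alternatives. U2AF1, the small subunit, read only 2.13 to 5.03 CPM, while its near-identical copy U2AF1L5 held 55.2 to 64.5 CPM. Reads of the pair cannot be assigned with certainty. Their sum was 58.2 to 67.7 CPM in the 12 libraries, and no fold change is given for it.

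Of the other regulators, QKI fell in both genotypes. QKI, a KH-domain protein that binds ACUAA-type elements and promotes circular RNA formation, was at 52.1, 50.4 and 56.2 CPM in wild-type DMSO and 40.9, 41.3 and 44.2 with JQ1, and at 55.0, 50.4 and 47.5 with DMSO and 46.4, 41.8 and 36.2 with JQ1 in knockout cells. DMSO and JQ1 libraries did not overlap in either genotype. The change was -0.33 (SE 0.09, adjusted p 0.00876) in wild type and -0.30 (SE 0.09, adjusted p 0.0145) in knockout. On the authors' normalized values the wild-type change was -0.10 (adjusted p 0.588, limma), and the gene-specific factor between that table and the counts shifted QKI by -0.21 in wild type and 0.10 in knockout. The wild-type call ended without wild-type DMSO replicate 3 (adjusted p 0.0562), and the knockout call without knockout DMSO replicate 1 (0.0810) or with the knockout groups alone (0.0563). Of the 45 members with at least 20 counts in every library, 41 had shifts within 0.1 in all comparisons; U2AF1, PTBP2 and RBFOX2 were the others beside QKI.

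RBFOX2, which binds GCAUG elements, had -0.11 (adjusted p 0.107) in wild type and -0.13 (adjusted p 0.0557) in knockout, with no overlap between treatments in either. On the authors' normalized values the wild-type value turned to 0.05 (adjusted p 0.627, limma), and the knockout value was -0.11 (adjusted p 0.147). MBNL1 and MBNL2, the muscleblind proteins, had -0.06 and -0.22, and 0.13 and 0.01. The knockout JQ1 libraries of MBNL1 were 219, 209.7 and 144 CPM, with replicate 3 the lowest library of the 12, and without it the knockout value of MBNL1 was -0.05 (adjusted p 0.595). ESRP1 and ESRP2, regulators of epithelial splicing, were at or below 0.495 CPM in every library.

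**Figure D3:**
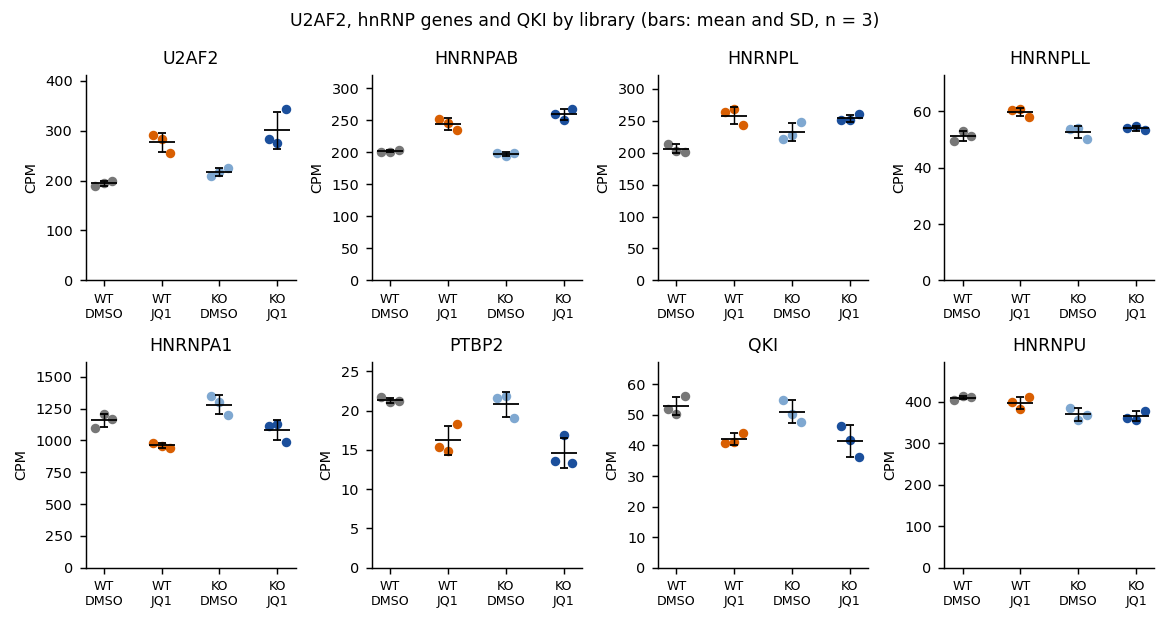
CPM of U2AF2, 6 hnRNPs and QKI in each of the 12 libraries (points), with the group mean and SD (bars, n = 3) and a linear axis from 0. U2AF2 and HNRNPAB are higher in all JQ1 libraries, with means of 277 and 244 CPM in wild-type JQ1, while HNRNPA1, PTBP2 and QKI are lower with JQ1 in each genotype.

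The knockout was then compared with wild type. With DMSO, 4 of 47 members passed, 2 higher and 2 lower, a share of 8.51% against 7.92% of all genes (3.47% higher and 4.44% lower). With library totals the split was 0 higher and 4 lower, against 516 higher and 1158 lower of all 21698 genes. The 4 members called with TMM scaling were all SR proteins. SRSF6 and SRSF2 were lower, at -0.32 (SE 0.05, adjusted p 0.00166) and -0.26 (SE 0.05, adjusted p 0.00709), with the library values given above, and in both genes every knockout DMSO library lay below every wild-type DMSO library. SRSF5 lay in the same direction at -0.28 (SE 0.09, adjusted p 0.0807), also without overlap. SRSF8, an SR protein close in sequence to SRSF2, was higher: it was at 34.4, 34.8 and 36.3 CPM in wild-type DMSO and 41.2, 40.5 and 43.0 in knockout DMSO, groups that did not overlap. Its log2 fold change was 0.24 (SE 0.06, adjusted p 0.0196). Whether reads were shared between this pair of related genes was not tested. SRSF12 was higher as well, by 0.77 (SE 0.22, adjusted p 0.0415), at 1.58 CPM or less in every library. The 43 other tested members, all hnRNPs among them, did not pass.

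The SRSF6 difference passed in all 20 alternatives. The SRSF2 call ended without wild-type DMSO replicate 1 (adjusted p 0.0571) or knockout DMSO replicate 3 (0.0582), the SRSF8 call with library totals, with no low-count filter, and without wild-type DMSO replicate 1 or 2 or knockout DMSO replicate 3 (0.0725 to 0.0912), and the SRSF12 call in 12 alternatives, among them DESeq2 (0.111) and leaving out any 1 wild-type DMSO library, knockout DMSO replicate 1 or 2, wild-type JQ1 replicate 1 or knockout JQ1 replicate 2 (0.0508 to 0.144). Without knockout JQ1 replicate 3, which is in neither of the groups compared here, 7 members passed with DMSO: these 4, SRSF5, HNRNPL and HNRNPU. Without wild-type DMSO replicate 1, 1 passed.

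Under JQ1, 2 of 47 members differed between genotypes, both higher in the knockout, a share of 4.26% against 8.57% of all genes (3.01% higher and 5.56% lower). SRSF7 was at 86.1, 83.7 and 86.5 CPM in wild-type JQ1 and 105, 102 and 109 in knockout JQ1. These groups were well apart. The difference was 0.30 (SE 0.06, adjusted p 0.00620), and the call held in all 20 alternatives. SRSF9 was higher by 0.27 (SE 0.08, adjusted p 0.0373); its call ended in 7 alternatives, among them leaving out knockout JQ1 replicate 3 (0.18, adjusted p 0.0761) and the JQ1 groups fitted alone (0.122), the others being limma on the authors' values and leaving out any 1 wild-type JQ1 library or knockout JQ1 replicate 1 (0.0524 to 0.139). HNRNPA1 had 0.17 (adjusted p 0.114) and did not pass, but without knockout JQ1 replicate 3 it passed at 0.23 (adjusted p 0.0109). None of the 4 members called with DMSO was called with JQ1, whereas 55.2% of all genes called with DMSO were. SRSF8 had 0.18 (adjusted p 0.0745) and SRSF12 0.75 (adjusted p 0.0770) under JQ1, near their values with DMSO. SRSF2 was at 0.11 (adjusted p 0.288) here, SRSF5 at 0.05 (0.821) and SRSF6 at -0.05 (0.685), each closer to 0 than with DMSO.

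Whether the drug response differed with genotype was tested directly as the interaction, the JQ1 effect in knockout minus that in wild type. No member passed in edgeR's quasi-likelihood test, against 0.134% of all genes (0.0323% higher and 0.101% lower), and 6 members had an unadjusted p under 0.05, 12.8% of those tested against 8.37% of all genes. With DESeq2 1 member passed and with GC and length offsets 2. The 3 smallest p were those of SRSF2, SRSF6 and SRSF5, all positive. SRSF2 had an interaction of 0.37 (SE 0.08, adjusted p 0.102), 0.36 with DESeq2 (adjusted p 0.00123) and 0.36 with the offsets (0.0160). SRSF6 had 0.27 (SE 0.08, adjusted p 0.292), and 0.25 with the offsets (0.0491). SRSF5 had 0.32 (SE 0.13, adjusted p 0.503). The other 3 with an unadjusted p under 0.05 were SRSF7 at 0.22, HNRNPL at -0.20 and HNRNPLL at -0.19. The knockout DMSO libraries enter both the drug effect in knockout cells and the knockout effect with DMSO, so the low values of SRSF2, SRSF5 and SRSF6 in those 3 libraries count towards each of them.

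Between the JQ1 responses, which share no libraries, 10 members passed in both genotypes, 76.9% of the 13 in wild type and 58.8% of the 17 in knockout. Over all genes the shares were 76.2% and 73.3%, and 99.8% of the genes called in both had the same direction. All 10 members had the same direction: SRSF5, SRSF9, HNRNPAB, HNRNPUL2 and U2AF2 were higher, and HNRNPA1, HNRNPH3, HNRNPR, PTBP2 and QKI lower. HNRNPL, HNRNPLL and HNRNPH1 passed in wild type alone, and SRSF2, SRSF3, SRSF6, SRSF7, SRSF12, TRA2A and HNRNPA0 in knockout alone, a split that is not by itself a difference between genotypes.

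**Figure D4:**
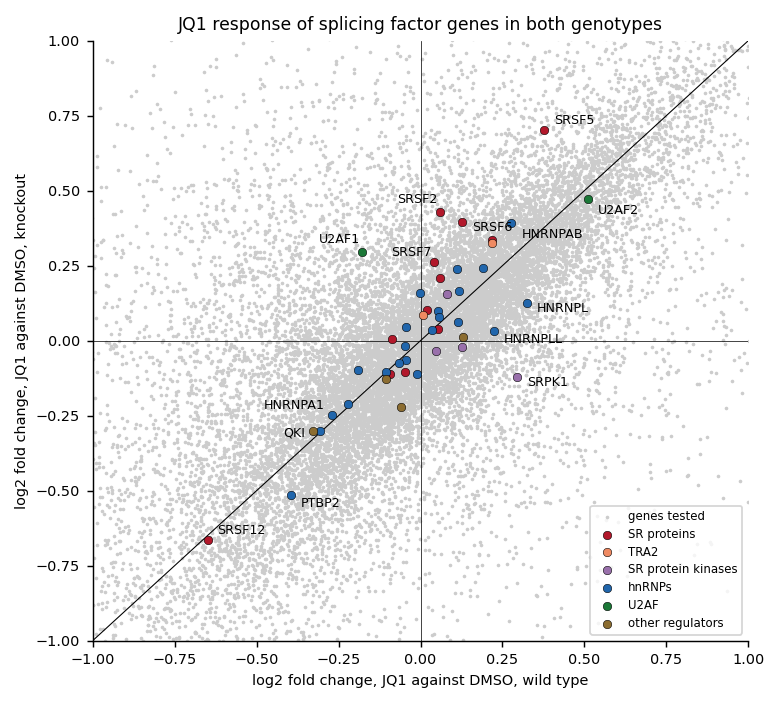
Log2 fold change with JQ1 in wild type (horizontal) and knockout (vertical) for each member, coloured by role, over all tested genes in grey (axes cut at 1 on each side; the line marks equal change). SRSF2 (0.06 and 0.43), SRSF5 (0.38 and 0.70) and SRSF6 (0.13 and 0.39) lie above the line, and HNRNPL (0.32 and 0.13) below it.

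HNRNPU, a chromatin-associated hnRNP also known as scaffold attachment factor A, lies on distal chromosome 1q (chr1:244840638-244864560, minus strand, GENCODE 29 on GRCh38), beyond MAPKAPK2 on the same arm. It was at 404, 413 and 411 CPM in wild-type DMSO and 385, 355 and 368 in knockout DMSO, and at 398, 381 and 410.2 and 361, 355 and 378 with JQ1. Knockout libraries were below wild-type libraries in each treatment, without overlap. The difference was -0.15 (SE 0.05, adjusted p 0.0909) with DMSO and -0.12 (SE 0.05, adjusted p 0.174) with JQ1. Across 20 alternatives it passed with DMSO in 3: library totals (adjusted p 0.0256), the DMSO groups alone (0.0484) and without knockout JQ1 replicate 3 (0.0313). With JQ1 it passed in none. Over all fits the difference ran from -0.20 to -0.08 with DMSO and from -0.15 to -0.07 with JQ1. The gene-specific factor between the authors' normalized values and the counts shifted HNRNPU by -0.05 with DMSO and -0.04 with JQ1.

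Of the 300 tested genes beyond MAPKAPK2 on chromosome 1, 129 (43%) were lower and none higher in the knockout with DMSO, and 139 (46.3%) were lower and 1 higher with JQ1. Their median log2 fold change was -0.39 and -0.37. The log2 fold change of HNRNPU lay above that of 249 of them with DMSO and of 233 with JQ1. HNRNPU is itself 1 of the 300. Whether the copy number of this segment differs between the lines was not tested.

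**Figure D5:**
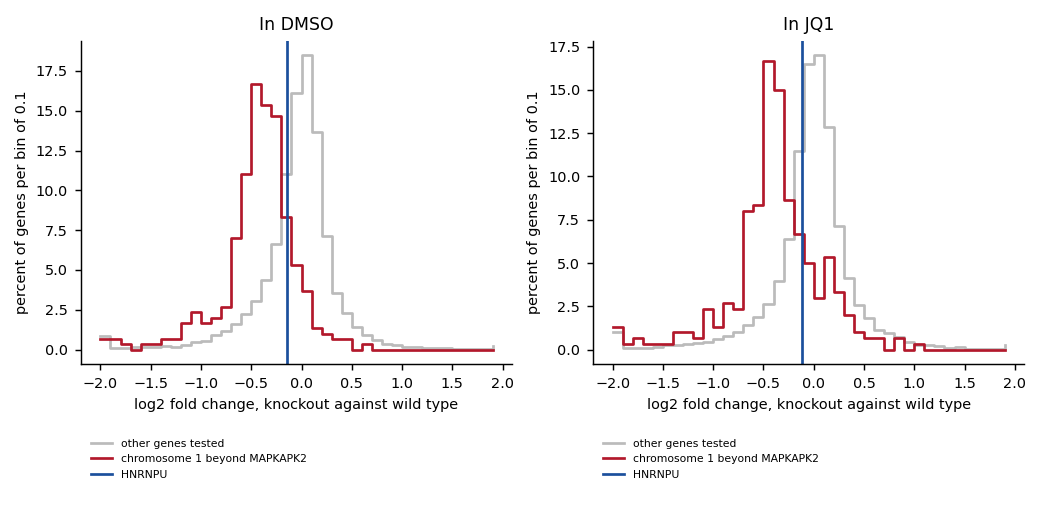
Percent of genes per bin of 0.1 in log2 fold change, knockout against wild type, for the 300 tested genes beyond MAPKAPK2 on chromosome 1 (red) and all other tested genes (grey), with DMSO (left) and JQ1 (right); values past 2 on either side are put in the end bins. The red curves centre near -0.39 and -0.37, and HNRNPU (blue line, -0.15 and -0.12) lies to their right.

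Other splicing genes were counted by list, relative to the typical gene of the library, against 16.9% of all genes higher and 16.2% lower with JQ1 in wild type, and 16.7% and 17.8% in knockout. Of 28 proteins of U1, U2 and the Sm ring, 4 rose and 5 fell in each genotype. SNRPB2, the U2 B″ protein, fell from 318 ± 10.3 to 181 ± 10.5 CPM in wild type (log2 fold change -0.81) and from 393 ± 19.0 to 202 ± 17.3 in knockout (-0.96), a larger change than that of any tested member other than ESRP2, and the SF3b subunit SF3B5 rose (0.49 and 0.44). Of 23 tri-snRNP proteins, 7 rose and 2 fell in wild type and 6 rose and 2 fell in knockout. Of 24 Prp19 complex and step factors, 4 rose and 3 fell in wild type and 3 rose and 6 fell in knockout, with CWC22 at -0.58 and -0.69. Of 11 minor spliceosome proteins, 2 rose and 1 fell in wild type and 2 rose and 3 fell in knockout, and SNRNP25, a U11/U12 protein, rose from 11.2 ± 1.05 to 24.6 ± 1.80 CPM (1.14) and from 13.1 ± 0.601 to 28.4 ± 1.11 (1.12; SD, n = 3 throughout).

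Of 41 tested other splicing regulators, 8 rose and 5 fell in wild type and 8 rose and 7 fell in knockout. MBNL3, the third muscleblind gene, fell from 19.8 ± 0.708 to 9.89 ± 1.63 CPM in wild type (-1.0) and from 17.0 ± 0.675 to 6.66 ± 1.09 in knockout (-1.36), while the members MBNL1 and MBNL2 did not pass. KHDRBS3, a STAR-family protein like QKI, rose (0.69 and 0.74). Of 17 genes of nonsense-mediated decay and the exon junction complex, 6 rose and none fell in each genotype, with SMG6 at 0.46 and 0.41 and EIF4A3 at 0.35 and 0.36, but with library totals the split turned to 2 higher and 4 lower in wild type and 3 higher and 5 lower in knockout. Library totals also turned the tri-snRNP split to 1 higher and 5 lower in wild type and 2 higher and 5 lower in knockout, and that of the other regulators to 4 higher and 10 lower and to 4 higher and 11 lower. The U1, U2 and Sm genes were then 2 higher and 12 lower in wild type and 2 and 9 in knockout, the Prp19 and step factors 1 and 7, and 0 and 10, and the minor spliceosome genes 2 and 3, and 2 and 4. Of all 21698 genes, 2298 were higher and 5368 lower with this scaling in wild type, and 2409 and 5250 in knockout. The median log2 fold change of the 6 lists ran from -0.01 to 0.04 in wild type and from -0.13 to 0.07 in knockout. With DMSO, knockout cells had higher levels of 2 U1, U2 and Sm genes, 3 tri-snRNP genes and 3 other regulators. None was lower in these 6 lists. The lists held 144 tested genes, and 3.47% of all genes were higher and 4.44% lower. With library totals 1 of the U1, U2 and Sm genes and 1 tri-snRNP gene were higher and 1 other regulator lower. Of all 21698 genes, 516 were then higher and 1158 lower. With JQ1 the knockout had 5 higher and 3 lower over the same lists, against 3.01% and 5.56% of all genes. With library totals it had 1 higher and 5 lower, against 496 and 1359 of all 21698 genes.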

How the data were processed

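RNA was sequenced from 12 A375 samples after depletion of ribosomal RNA and directional library preparation, per the labels' protocols. The authors deposited estimated counts per gene symbol, which need not be whole; the submitters' processing notes name Trim Galore, cutadapt, FastQC, MultiQC, kallisto, DESeq2 and the build GRCh38.p10, without role, order or version. The annotation and any use of strand in counting are not given in the sources used here, so overlapping, antisense and near-identical genes are uncertain. The other table, of 32828 genes, holds a normalized signal that the authors made by dividing each rounded count by a gene- and library-specific factor, as the values show; it served only in alternatives.

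Estimated counts were rounded, since the test had been planned for whole counts. edgeR 4.0.16 (limma 3.58.1, R 4.3.3) filtered low counts (filterByExpr), scaled libraries by TMM (factors 0.926 to 1.06) and fitted all 12 libraries with 1 term per group. Its quasi-likelihood test gave 5 comparisons, adjusted by Benjamini-Hochberg over 21698 genes with a threshold of 0.05. The model's prior count was 0.125. CPM were computed from TMM-scaled library sizes. Fits were tested on simulated data. The 20 alternatives included DESeq2 1.42.0, library totals, other low-count filters, only the groups compared, a replicate block, limma on log2(value + 1) of the authors' signal, each library left out and, chosen after seeing the data, offsets for GC content and transcript length.

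The members and gene lists were chosen with earlier results of these data known. Values in every library are given for HNRNPU, for up to 6 rises and 6 falls per comparison past the threshold without overlap between groups, and for the 3 smallest interaction p. Other members given by library, and genes outside the lists' 3 largest changes, were chosen after their values were seen. Promoters are RefSeq's on GRCh38.p14; gene order and the position of HNRNPU are GENCODE 29's, matched by symbol.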

Additional observations from a re-analysis of the deposited data

How the results depend on the processing

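No member changed direction in any alternative in a comparison in which it had passed. With only the groups compared, 10 members passed with JQ1 in knockout, 7 between genotypes with DMSO and 1 with JQ1, and the counts over all genes between genotypes were 2619 (1718 in the report's fit) and 922 (1860). GC and length offsets, chosen after seeing the data, gave 8, 6 and 2 members for the genotypes with DMSO, with JQ1 and for the interaction, and 2761, 3019 and 149 genes (29 in the report's fit for the interaction). DESeq2 gave 1 member and 139 genes for the interaction. Without a low-count filter there were 2 members between genotypes with DMSO and 236 interaction genes. limma on the authors' signal gave 8 members with JQ1 in wild type and 1 between genotypes under JQ1. Leaving out 1 library at a time gave 9 to 18 members with JQ1 in wild type, 11 to 16 in knockout, 1 to 7 between genotypes with DMSO, 1 to 2 with JQ1 and 0 for the interaction. Over all genes it gave 1092 to 2650, 1223 to 2331 and 8 to 88 for the last 3. The 18 members in wild type came without knockout JQ1 replicate 3, a fit in which 8455 of 22273 genes passed. The cause of these changes was not tested, except that a smaller fit has fewer libraries. With a replicate block the genes passing were 6789, 7136, 1487, 1569 and 21 and the members 12, 17, 3, 2 and 0, in the order JQ1 in wild type, JQ1 in knockout, genotypes with DMSO, genotypes with JQ1 and interaction. Samples with the same number did not deviate together (r from -0.115 to 0.0786 over 18 pairs, and from -0.136 to 0.106 over the 36 pairs with other numbers), so the numbers were not taken as pairing. Depth and 3 replicates per group leave some changes of several SE unresolved. In edgeR's test the SRSF2 interaction was 0.37 (SE 0.08) with an adjusted p of 0.102. HNRNPU with DMSO was -0.15 (SE 0.05) between genotypes, with an adjusted p of 0.0909.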
